A study of Mus musculus with 6 samples.

Results

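The alcohol and aldehyde dehydrogenases described here are Adh1, Adh4, Adh5, Aldh1a1, Aldh1a7, Aldh1b1, Aldh1l1, Aldh2, Aldh3a2 and Aldh9a1, 10 of the 18194 genes represented on the arrays. The genes were chosen by enzyme family with signals and differences of these arrays already known, and each gene's probe set was selected on its mean signal over the 6 arrays, so all values are descriptions and none was tested. A gene counted as measured when its signal exceeded a floor of 221.4, the median of all deposited values, on at least 1 array. All 10 were among the 13989 measured genes, and each lay above the floor on all 6 arrays, so no difference between them involved a floored value.

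Liver RNA came from C57BL6/J mice, a common inbred strain, all male and 6 to 8 weeks old when feeding began. In the 2-month study the groups were fast-food diet with canertinib in the food at an estimated 80 mg/kg per day, fast-food diet alone, and chow. In the 5-month study they were fast-food diet with canertinib injected intraperitoneally at 80 mg/kg on 5 days a week for the closing 5 weeks, fast-food diet with PBS vehicle, and chow, for which the labels name no injection. The diet contained 21% fat, 34% sucrose and 0.2% cholesterol, with glucose at 18.9 g/L and fructose at 23.1 g/L in the drinking water, and canertinib is an inhibitor of the epidermal growth factor receptor kinase family. Each group was 1 array hybridised with RNA pooled from 3 to 4 livers. Animal-to-animal spread was therefore not available, and drug route and duration differed between the studies together with study length.

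Alcohol dehydrogenases use NAD to oxidise alcohols to aldehydes, and aldehyde dehydrogenases oxidise the aldehydes to acids. In liver, Adh1 and the mitochondrial Aldh2 carry most ethanol oxidation to acetate, while the cytosolic Aldh1a1 forms retinoic acid from retinaldehyde. Adh5 clears formaldehyde and S-nitrosoglutathione, Aldh1l1 clears formate from the folate pool, Aldh3a2 oxidises long-chain fatty aldehydes, and Aldh9a1 serves carnitine synthesis. The enzymes are abundant in hepatocytes, and all 8 hepatocyte markers analysed here were above the floor on every array.

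Each array had been scaled to the same trimmed mean, and between 84.3% and 86.6% of measured genes exceeded the floor. As a measure of RNA integrity, the actin controls at the 3' end exceeded those at the 5' end by a log2 value of 1.19 and 1.12 on the canertinib arrays, against 0.85 and 0.98 on the diet arrays and 0.94 and 0.85 on the chow arrays (2-month value first in each pair). For Gapdh the same difference was -0.20 and -0.14 on the canertinib arrays. It was -0.30 and -0.22 on the diet arrays and -0.18 and -0.09 on the chow arrays. The part of RNA integrity in the differences below was not tested. The summed signal of the 8 hepatocyte markers was 543278 with canertinib, 403872 with diet and 349120 with chow at 2 months, and 420987, 293485 and 379886 in the same order at 5 months. In these bulk samples, fewer cells of a type and less RNA per cell cannot be told apart.

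Of the 10 genes, Aldh3a2 differed most between the groups, in the same directions in both studies. With canertinib and diet against diet at 2 months, 3 genes were at least 2-fold lower, namely Aldh3a2, Aldh1a7 and Aldh1a1, and none was at least 2-fold higher, while 3.26% and 3.55% of all measured genes were lower and higher by that much. At 5 months 1 gene, Aldh3a2, was at least 2-fold lower and none higher, against 2.73% and 2.19% of all measured genes. In the diet comparison with chow, Aldh3a2 was the 1 gene at least 2-fold higher at 2 months, where none was lower (1.98% and 1.55% of all genes). At 5 months Aldh3a2 was higher and Aldh1l1 lower by at least 2-fold (2.72% and 1.83% of all genes), the Aldh1l1 call resting on its brighter probe set. With canertinib and diet against chow, Aldh3a2 was the 1 gene at least 2-fold lower at 2 months and none was higher (2.74% and 3.80% of all genes), and at 5 months no gene passed in either direction (2.72% lower and 2.82% higher among all genes). Between 5-month and 2-month chow, none of the 10 passed on its brightest probe set, against 1.28% higher and 1.32% lower of all genes. These arrays differ by neither diet nor drug, but by study and its length. Dimmer probe sets of Aldh2 had log2 differences of 1.17 and 1.87 there. The plot of signals by array shows these patterns gene by gene. Where a comparison or group has a pair of values, the 2-month study is first and the 5-month study second.

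**Figure D1:**
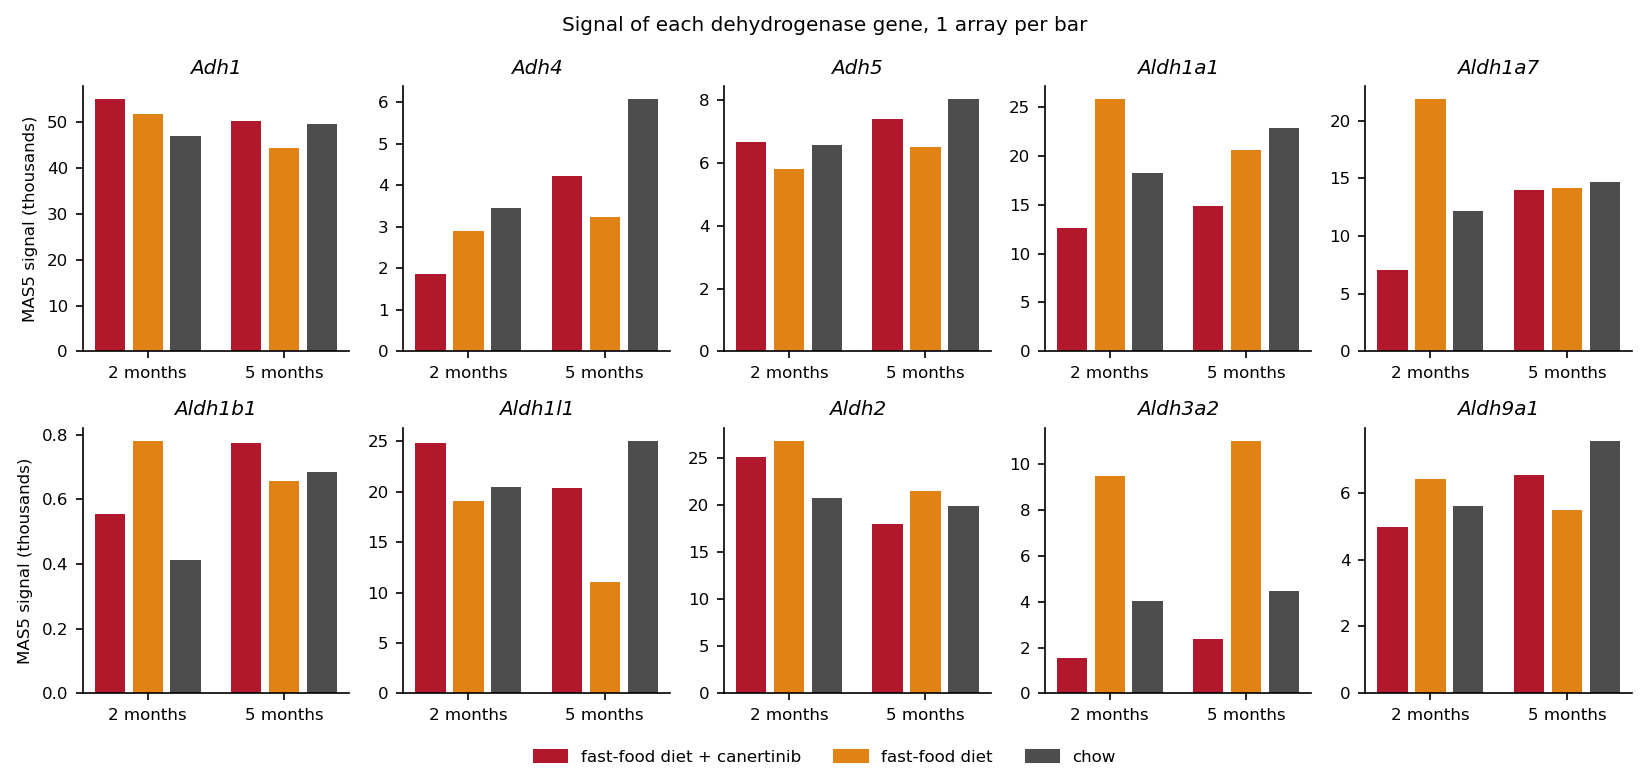
MAS5 signal (in units shown on the axis) on a linear scale from 0 for each of the 10 genes, with 1 bar per array of pooled liver RNA, grouped by study. Aldh3a2 has its highest bars with diet and its lowest with diet and canertinib in both studies, whereas Adh1 spans only 1.24-fold over the 6 arrays.

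Aldh3a2 encodes the fatty aldehyde dehydrogenase of the endoplasmic reticulum, which converts long-chain aldehydes from sphingolipid, ether lipid and phytol breakdown to fatty acids. In the 2-month study its signal was 1563 with canertinib and diet, 9515 with diet and 4016 with chow. In the 5-month study the signal was 2370 with canertinib and diet, 11040.4 with diet and 4476 with chow. The order was thus the same in both studies, with the diet array highest and the canertinib array lowest. The share of all genes with this or any other order of the groups was not counted. The log2 difference with canertinib and diet against diet was -2.61 at 2 months, 6.09-fold lower, and -2.22 at 5 months, 4.66-fold lower. These were the 25th and 19th lowest of the 13989 measured genes. Against chow, the log2 difference with diet was 1.24 at 2 months and 1.30 at 5 months, or 2.37-fold and 2.47-fold higher. The comparisons with canertinib and with diet share the fast-food array, so their opposite signs are not independent of each other. The canertinib array set against chow does not use it, and there Aldh3a2 was 2.57-fold lower at 2 months and 1.89-fold lower at 5 months. On the log2 scale that difference is the sum of those for canertinib and for diet, so it is no independent check. Between the chow arrays Aldh3a2 differed by 0.16 on the log2 scale. Only 1 probe set with a single gene symbol reported the gene, so no second probe set checked it. All 8 hepatocyte markers were higher with canertinib and diet than with diet in each study, with median log2 differences of 0.46 and 0.50. The summed signal of 8 neutrophil markers was 15586 and 16688 on the canertinib arrays, against 3237 and 2643 on the diet arrays, and 2954 and 3106 on chow. The part of hepatocyte or neutrophil RNA in the Aldh3a2 difference was not tested.

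**Figure D2:**
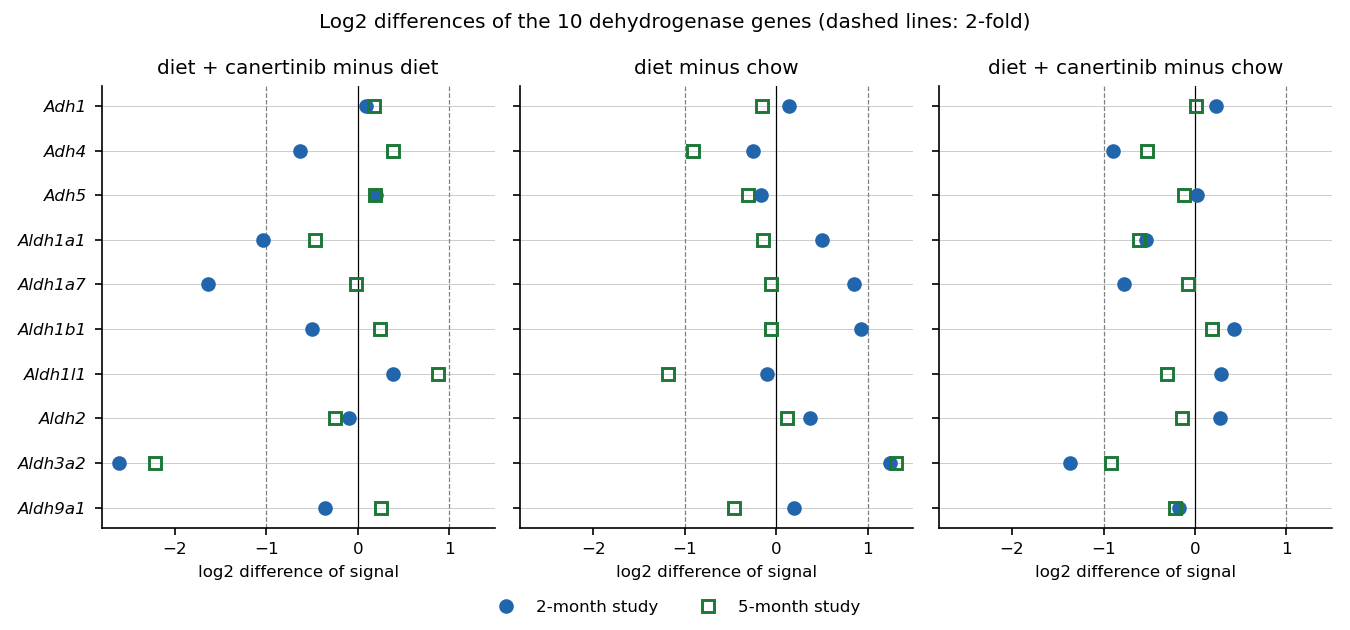
Log2 differences of signal for the 10 genes in 3 comparisons, with filled circles for the 2-month and open squares for the 5-month study and dashed lines at 2-fold. Aldh3a2 lies at -2.61 and -2.22 with canertinib and diet against diet and at 1.24 and 1.30 with diet against chow, and for Aldh1a7 the squares lie near 0.

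The bases before the annotated start of Aldh3a2 are shown because the gene carries the largest differences of the 10. They are from RefSeq, build GRCm38.p6, minus strand, at chr11:61267187-61267436, written 5′ to 3′ with matches to the GC box GGGCGG, the E-box motif CACGTG and the box motif CCAAT in capitals. These motifs, the octamer ATGCAAAT and the TATA-type motif TATAAA were searched on both strands in the 250 bases before each start, and no matches printed overlap.
Aldh3a2: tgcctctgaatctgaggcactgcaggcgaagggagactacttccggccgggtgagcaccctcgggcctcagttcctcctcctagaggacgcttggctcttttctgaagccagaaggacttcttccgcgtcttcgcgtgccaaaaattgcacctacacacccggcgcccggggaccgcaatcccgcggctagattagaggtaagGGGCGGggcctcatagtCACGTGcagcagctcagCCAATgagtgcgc
Among 32851 windows of that length over annotated mouse gene starts, 32.7% held the GC box, 6.02% the E-box motif, 33.8% the box motif CCAAT, 1.60% the octamer and 12.4% the TATA-type motif. A match is a run of letters and does not show that a factor binds there.

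Aldh1a1 and Aldh1a7 are neighbouring paralogs on chromosome 19, with no other protein-coding gene between them in the annotation. Aldh1a1 encodes cytosolic retinaldehyde dehydrogenase, and Aldh1a7 a rodent enzyme of close sequence. Their probes may therefore share some transcript, and the split of signal between them is uncertain. At 2 months Aldh1a1 had a signal of 12579 with canertinib and diet, 25829 with diet and 18281 with chow. At 5 months the Aldh1a1 signal was 14881 with canertinib and diet, 20572 with diet and 22791 with chow. The canertinib array was the lowest in each study, and how many of all genes had that order was not counted. Aldh1a1 was 2.05-fold lower with canertinib and diet than with diet at 2 months (log2 -1.04) and 1.38-fold lower at 5 months (log2 -0.47). Its log2 difference with diet against chow was 0.50 at 2 months and -0.15 at 5 months.

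Aldh1a7 had a signal of 7066 with canertinib and diet, 21921 with diet and 12141 with chow at 2 months. The corresponding signals at 5 months were 13972, 14169 and 14718, which lay within 1.05-fold of each other. The 2-month study thus gave both the highest and the lowest of the 6 values, and the 5-month arrays lay between them. With canertinib and diet against diet, Aldh1a7 was 3.10-fold lower at 2 months (log2 -1.63), where it was the 110th lowest of 13989 genes, and its log2 difference at 5 months was -0.02. The log2 differences with diet against chow were 0.85 and -0.05. The difference between the studies was not tested, and drug in the food and drug by injection cannot be told apart from the study length. After centring on their own means, the log2 signals of Aldh1a1 and Aldh1a7 differed by a root mean square of 0.25 over the 6 arrays.

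The promoters of this pair are shown because the genes had their highest and lowest arrays in common. RefSeq annotates more than 1 start of Aldh1a1, and the start printed is the one more like that of Aldh1a7. Over the 120 bases before the start, 105 of 120 aligned positions were identical, or 87.5%, against 48.5% for the other start, which needed gaps. Over the 250 bases searched for motifs the likeness was less. There 175 of 265 aligned positions, gaps included, were identical, or 66.0%, against 50.9% for the other start. The windows are chr19:20601848-20601967 on the plus strand for Aldh1a1 and chr19:20727557-20727676 on the minus strand for Aldh1a7, build GRCm38.p6, 5′ to 3′, with the box motif CCAAT and the octamer ATGCAAAT in capitals.
Aldh1a1: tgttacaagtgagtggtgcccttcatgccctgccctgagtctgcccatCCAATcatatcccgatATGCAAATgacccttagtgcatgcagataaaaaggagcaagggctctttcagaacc
Aldh1a7: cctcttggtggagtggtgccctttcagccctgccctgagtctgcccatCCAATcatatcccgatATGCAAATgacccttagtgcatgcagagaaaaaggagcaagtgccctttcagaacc
Both windows hold these motifs at the same distance from the start, and the octamer was in none of the other windows of the 9 genes matched. Farther from its start, Aldh1a7 has a second CCAAT and a TATA-type match. Aldh2 was the gene not matched.

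**Figure D3:**
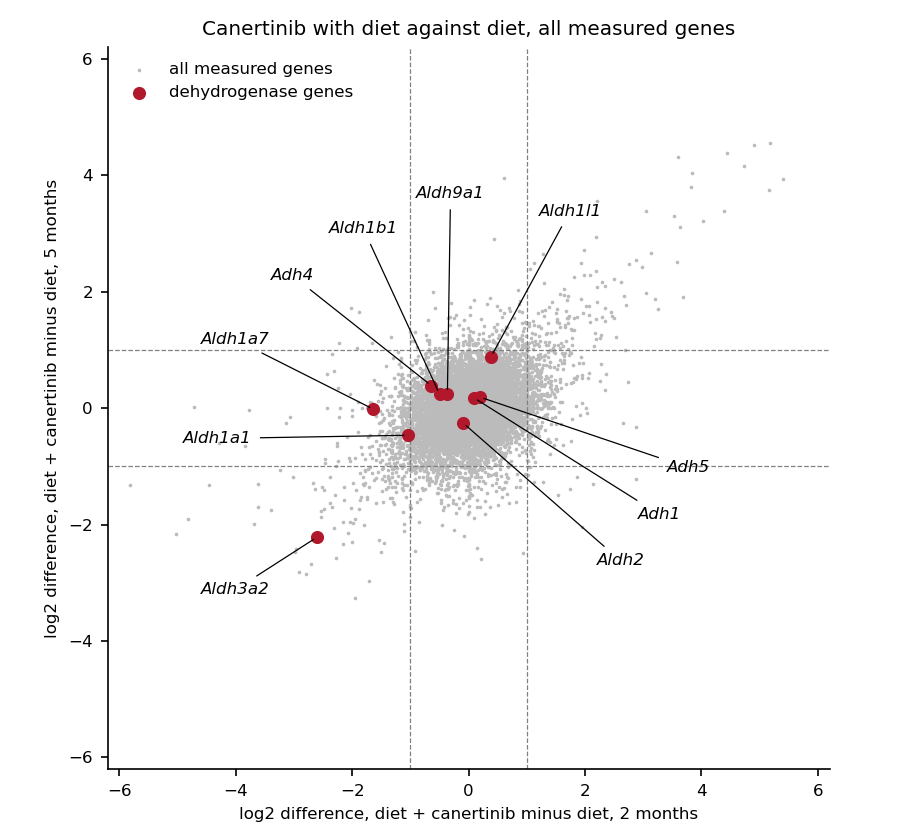
Log2 difference with canertinib and diet against diet at 2 months (horizontal axis) and at 5 months (vertical axis) for all 13989 measured genes in grey and the 10 dehydrogenases in red, with dashed lines at 2-fold. Aldh3a2 lies beyond 2-fold in both studies, Aldh1a7 and Aldh1a1 in the 2-month study alone, and the other 7 inside 2-fold in both.

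Among the alcohol dehydrogenases, Adh1 and Adh5 differed little and Adh4 more. Adh1, Adh4 and Adh5 lie in 1 cluster on chromosome 3, in the order Adh1, Adh6a, Adh6b, Adh4, Adh5. Adh1, the main ethanol-oxidising enzyme of liver, had signals of 55078 with canertinib and diet, 51644 with diet and 46950 with chow at 2 months. At 5 months Adh1 had 50104 with canertinib and diet, 44384 with diet and 49647 with chow. Its largest difference within a study was 1.17-fold, between canertinib with diet and chow at 2 months. Adh5, the glutathione-dependent formaldehyde dehydrogenase also known as S-nitrosoglutathione reductase, had 6665 with canertinib and diet, 5828 with diet and 6569 with chow at 2 months. Its signals at 5 months were 7410 with canertinib and diet, 6502 with diet and 8059 with chow. In each study the diet array of Adh5 was the lowest, with log2 differences of -0.17 and -0.31 against chow, and canertinib with diet against diet gave 0.19 in both. The dimmer probe set of Adh5 had 0.23 and 0.63 in the canertinib comparisons and was under the floor on 3 of 6 arrays, both diet arrays among them, so these values are lower bounds.

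Adh4, which oxidises retinol and larger alcohols, spanned 3.27-fold over the 6 arrays. Its signal was 1864 with canertinib and diet, 2900 with diet and 3465 with chow at 2 months. At 5 months Adh4 had 4226 with canertinib and diet, 3237 with diet and 6092 with chow. Chow was the highest array in each study, but the canertinib array was the lowest at 2 months and the diet array at 5 months. The log2 difference with canertinib and diet against diet was -0.64 at 2 months and 0.38 at 5 months, and that with diet against chow was -0.26 and -0.91. Against chow, canertinib and diet gave -0.89 and -0.53. The chow arrays themselves differed by 0.81, higher at 5 months, close to the largest of these values.

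Aldh1l1 encodes the cytosolic 10-formyltetrahydrofolate dehydrogenase, which releases formate carbon as carbon dioxide. It had signals of 24868 with canertinib and diet, 19041 with diet and 20462 with chow at 2 months. At 5 months Aldh1l1 had 20315 with canertinib and diet, 11051 with diet and 25058 with chow. The 5-month diet array stood below the other 5, which ranged from 19041 to 25058. Aldh1l1 with diet was 2.27-fold lower than with chow at 5 months (log2 -1.18), the 144th lowest of 13989 genes, and its log2 difference at 2 months was -0.10. Canertinib and diet against diet gave 0.39 and 0.88. The dimmer Aldh1l1 probe set had the same sign at 5 months with a log2 difference of -0.31 for diet and 0.73 for canertinib, but 0.34 for diet at 2 months. The 5-month diet difference of Aldh1l1 was under 2-fold with the mean over both probe sets (log2 -0.74) and relative to the hepatocyte markers (log2 -0.83), as well as in the dimmer probe set alone. On the 5-month diet array the median of the 8 hepatocyte markers was also lower than on chow, with a log2 difference of -0.35, and its part in the Aldh1l1 difference was not tested.

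Aldh2 and Aldh1b1 encode mitochondrial enzymes that oxidise acetaldehyde. Aldh2 had signals of 25066 with canertinib and diet, 26809 with diet and 20755 with chow at 2 months. At 5 months Aldh2 had 17988 with canertinib and diet, 21451 with diet and 19827 with chow. The diet array was the highest in each study, with log2 differences of 0.37 and 0.11 against chow and of -0.10 and -0.25 for canertinib and diet against diet. The 5 probe sets of Aldh2 did not share these signs, since 4 and 2 of 5 had the sign of the brightest in the diet comparisons and 3 and 2 of 5 in the canertinib comparisons. Their log2 differences ranged from -0.66 to 1.07 for diet and from -0.85 to 0.71 for canertinib, so no direction is given for Aldh2 in these comparisons. Canertinib and diet against chow gave 1 sign over all 5 probe sets in each study, from 0.11 to 1.04 at 2 months and from -0.19 to -0.08 at 5 months.

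Aldh1b1 had the lowest signal of its 6 arrays on 2-month chow. It had 553.8 with canertinib and diet, 782.1 with diet and 413.5 with chow at 2 months, and 775.9, 657.1 and 684.1 in the same order at 5 months. With diet against chow the log2 difference was 0.92 at 2 months and -0.06 at 5 months. The chow arrays differed by 0.73, higher at 5 months. Both that difference and the 2-month diet difference use the 2-month chow array, so their sizes are not independent. Canertinib and diet against diet gave -0.50 and 0.24.

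Aldh9a1 encodes the 4-trimethylaminobutyraldehyde dehydrogenase of carnitine synthesis. Its signals were 4973 with canertinib and diet, 6398 with diet and 5604 with chow at 2 months, and 6517, 5483 and 7555 in the same order at 5 months. The groups had no common order, and the largest difference within a study was 1.38-fold, with diet below chow at 5 months. A second Aldh9a1 probe set had the same sign in both diet comparisons (log2 0.14 and -0.27) and in the 2-month canertinib comparison (-0.44), and had -0.02 at 5 months, against 0.25 for the first.

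Without Aldh3a2, the log2 differences of the other 9 genes ranged from -1.63 to 0.39 with canertinib and diet against diet at 2 months and from -0.47 to 0.88 at 5 months. Over all 10, the median log2 difference was -0.43 and 0.18 in these comparisons and 0.28 and -0.15 with diet against chow, beside a median of 0 over all measured genes in each. Between the chow arrays, 9 of the 10 were higher at 5 months, with a median of 0.29, and 6408 of all measured genes were higher and 6462 lower. That count rests on the brightest probe sets. For Adh5, Aldh1l1, Aldh2 and Aldh9a1, the probe sets of the same gene did not all have the same sign there. Their log2 differences ranged from -0.41 to 0.29 for Adh5 and from -0.04 to 0.29 for Aldh1l1. The ranges were -0.07 to 1.87 for Aldh2 and -0.02 to 0.43 for Aldh9a1.

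Of 18 other alcohol and aldehyde dehydrogenase genes listed, 17 were analysed and 12 were measured, and none of the 12 was at least 2-fold different in any of the 3 comparisons in either study. In these comparisons 1.55% to 3.80% of all measured genes passed 2-fold in a given direction. Their median log2 difference with canertinib and diet against diet was -0.06 at 2 months and 0.27 at 5 months, and with diet against chow it was -0.08 and -0.26. Aldh7a1, which acts in lysine breakdown, had signals of 5049 with canertinib and diet, 9295 with diet and 9233 with chow at 2 months. At 5 months Aldh7a1 had 6371 with canertinib and diet, 7197 with diet and 10682 with chow. Its canertinib arrays were the lowest in each study, with log2 differences against chow of -0.87 and -0.75. Aldh8a1, an aldehyde dehydrogenase of the tryptophan pathway, was lower with canertinib and diet than with diet by -0.50 and -0.40 on the log2 scale. Aldh16a1 and Aldh3b2 had the opposite sign in both studies, at 0.55 and 0.47 for Aldh16a1 and 0.47 and 0.63 for Aldh3b2. Aldh4a1, the proline-pathway enzyme, had -0.11 and -0.85 with diet against chow.

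**Figure D4:**
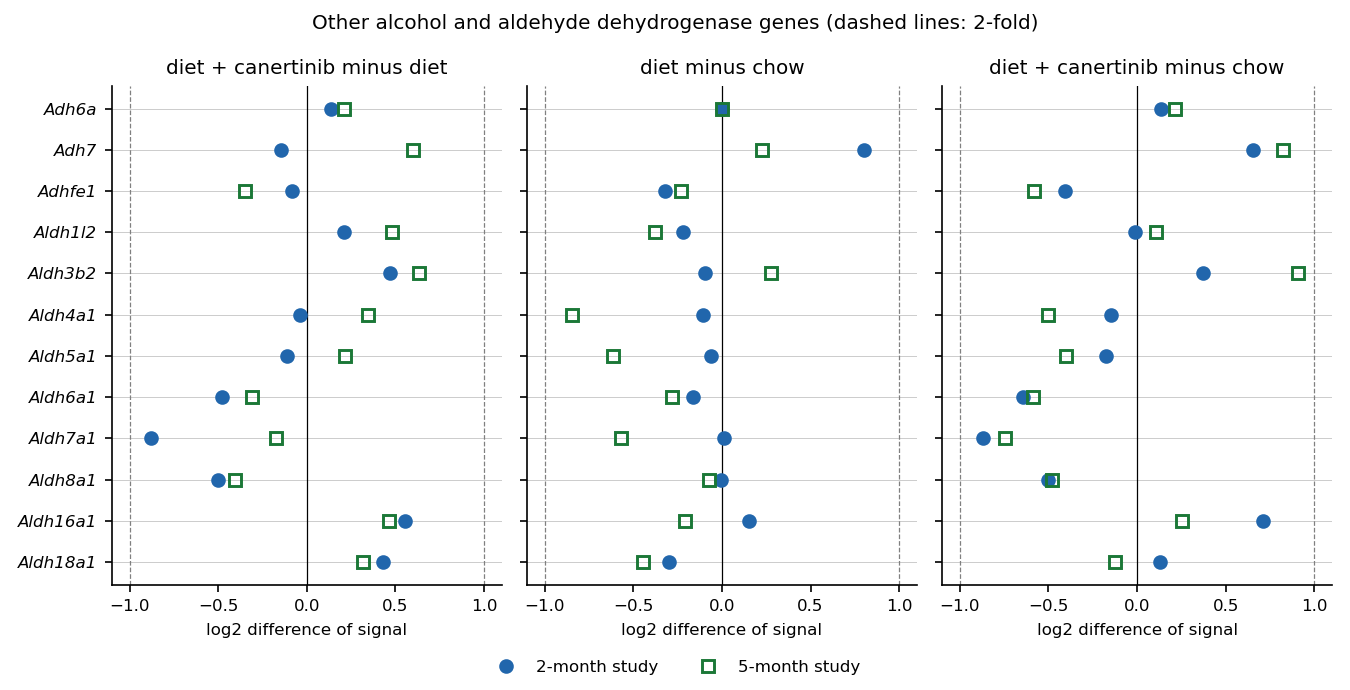
Log2 differences of signal for the 12 other alcohol and aldehyde dehydrogenase genes measured, with filled circles for the 2-month and open squares for the 5-month study and dashed lines at 2-fold. No point lies beyond 2-fold, and Aldh7a1 has the lowest value with canertinib and diet against diet at 2 months, -0.88.

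Genes that act beside the dehydrogenases were described by list, with counts set beside the shares of all measured genes. With canertinib and diet against diet, 3.26% of all measured genes were at least 2-fold lower and 3.55% higher at 2 months. At 5 months the shares were 2.73% and 2.19%. With diet against chow they were 1.55% lower and 1.98% higher at 2 months, and 1.83% and 2.72% at 5 months. In the ethanol list of 3 measured genes, none was at least 2-fold different with canertinib and diet against diet. Cyp2e1, the microsomal ethanol-oxidising P450, had log2 differences of 0.26 and 0.44, and the catalase gene Cat had -0.53 and -0.32. The acetyl-CoA synthetase gene Acss2, whose product activates the acetate formed by Aldh2, had -0.01 and -0.03, and with diet against chow it had -0.25 and -1.23.

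Of the genes of retinoid handling, 16 were measured. With canertinib and diet against diet, 2 were at least 2-fold lower at 2 months and none higher (3.26% and 3.55% of all genes). At 5 months 2 were lower and 1 higher (2.73% and 2.19% of all genes). The higher gene was Dhrs3 (log2 1.43, against -0.31 at 2 months). The medians were -0.10 and 0.01. The lower genes were the same at both times, Retsat, which encodes retinol saturase, and Rdh16, a retinol dehydrogenase gene. Retsat had signals of 1205 with canertinib and diet, 6940 with diet and 8351 with chow at 2 months. At 5 months Retsat had 1671 with canertinib and diet, 6135 with diet and 6818 with chow. Its canertinib arrays lay below diet by log2 differences of -2.53 and -1.88, while diet and chow differed by -0.27 and -0.15 on the log2 scale. Rdh16 had -1.49 and -1.22 with canertinib and diet against diet, and the short-chain dehydrogenase gene Dhrs4 had -0.94 and -0.69. With diet against chow none of the 16 passed at 2 months, and at 5 months 3 were higher and 1 lower (2.72% and 1.83% of all genes). Lrat, the retinol-esterifying enzyme gene of stellate cells, was higher by 1.28, the retinoic acid receptor gene Rarb by at least 1.13 and the retinoic acid hydroxylase gene Cyp26b1 by at least 1.28 on the log2 scale, both Rarb and Cyp26b1 with chow under the floor, and Rdh11 had -1.37.

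In the list of aldo-keto reductases, carbonyl reductases and molybdenum hydroxylases, 20 genes were measured. With canertinib and diet against diet, 3 of 20 were at least 2-fold lower and 1 higher at 2 months (3.26% and 3.55% of all genes). At 5 months 2 were lower and none higher (2.73% and 2.19% of all genes). The medians were -0.44 and -0.21. The lower genes were Aox1, Aox3 and Akr1c19 (log2 -1.38, with -0.70 at 5 months) at 2 months and Aox1 and Cbr3 at 5 months, where Cbr3 was under the floor with canertinib, and the higher one was the carbonyl reductase gene Cbr1 at 1.19, which had -0.40 at 5 months. Aox1 and Aox3 encode aldehyde oxidases, which oxidise aldehydes without NAD. Aox1 had 704.4 with canertinib and diet, 3591 with diet and 3244 with chow at 2 months, and 1029, 3335 and 3802 in the same order at 5 months. The Aox3 signals in that order were 1602, 8874 and 15229 in the 2-month study and 3330, 6435 and 19095 in the 5-month study. For both genes the canertinib arrays were the lowest in each study, and for Aox3 the diet arrays also lay below chow, by -0.78 and -1.57 on the log2 scale.

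With canertinib and diet against diet, none of 16 measured genes of formaldehyde and folate metabolism was at least 2-fold lower in either study. Among all genes 3.26% and 2.73% were lower. None was higher at 5 months and 1 was higher at 2 months (2.19% and 3.55% of all genes). That gene was Mat1a, which makes S-adenosylmethionine, with log2 differences of 1.06 and 0.79. With diet against chow none of the 16 passed 2-fold, the median was 0.05 at 2 months and -0.41 at 5 months, and the glycine methyltransferase gene Gnmt had 0.05 and -0.99 beside the -0.10 and -1.18 of Aldh1l1. With canertinib and diet against diet, 1 of 10 measured genes of fatty aldehyde formation and carnitine synthesis was at least 2-fold lower. This was the carnitine transporter gene Slc22a5 at 5 months (log2 -1.89, with 0.10 at 2 months), where 2.73% of all genes were lower. The carnitine synthesis gene Bbox1, which acts after Aldh9a1, had -0.61 and -0.70. Hacl1, whose product forms fatty aldehydes in peroxisomes, had 0.35 and 0.78 in that comparison, in which Aldh3a2 had -2.61 and -2.22. With diet against chow Hacl1 had -0.37 and -1.25, and Aldh3a2 had 1.24 and 1.30. At 5 months Hacl1 was the 1 of these 10 genes at least 2-fold lower with diet (1.83% of all genes), and none was higher (2.72%).

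Rodent Aldh1a1 and Aldh1a7 respond to phenobarbital-type inducers, so targets of the receptors CAR and PXR were listed too. With canertinib and diet against diet at 2 months, 5 of 14 measured genes were at least 2-fold lower and 1 higher. Among all genes the shares were 3.26% and 3.55%. At 5 months 3 were lower and 1 higher (2.73% and 2.19% of all genes). The list medians were -0.49 and -0.41. The transporter gene Abcc3 had -2.51 and -1.36. The P450 gene Cyp2c55 had at most -2.04 at 2 months, where the canertinib array was under the floor, and Cyp2b9 had 0.02 and -1.46. Cyp2b10, also counted as lower at 2 months, had -1.16 there. At 5 months it had at most -0.59, with the canertinib array under the floor. The glutathione transferase gene Gstm3 had 4858 with canertinib and diet, 15949 with diet and 5492 with chow at 2 months, and 5594, 14279 and 5774 in the same order at 5 months. Like Aldh3a2, Gstm3 was highest on the diet array of each study, but its canertinib and chow arrays were close. Cyp3a11 had -1.06 and -0.23, and Cyp3a13 had the opposite sign at 1.71 and 1.01. With diet against chow, 2 of 14 were at least 2-fold higher and 1 lower in each study. Among all genes 1.98% and 2.72% were higher, and 1.55% and 1.83% lower. The higher genes were Cyp2b9 (1.94 and 1.15) and Gstm3 (1.54 and 1.31), and the lower one was the carboxylesterase gene Ces2a (-1.89 and -2.00).

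For each gene that spanned at least 2-fold over the 6 arrays, the nearest genes in pattern were taken from the 9874 genes above the floor on all arrays, by the root mean square difference of log2 signals after centring each gene on its own mean. Nearest to Aldh3a2 were Bdh1, the gene of the ketone body enzyme 3-hydroxybutyrate dehydrogenase, at 0.27 and the fatty acid binding protein gene Fabp2 at 0.28. Bdh1 had log2 differences of -2.30 and -1.50 with canertinib and diet against diet and 0.76 and 0.84 with diet against chow, and Fabp2 had -2.96 and -2.42 and then 2.15 and 1.53. Nearest to Aldh1a1 were the importin gene Ipo8 and the adiponectin receptor gene Adipor2, at 0.06 each, and nearest to Aldh1a7 the activin subunit gene Inhbe at 0.07 and Them7 at 0.09. Adh4 was nearest to the pyruvate dehydrogenase phosphatase gene Pdp2 at 0.15 and to Ppm1k, a phosphatase gene of branched-chain amino acid breakdown, at 0.17. Aldh1l1 was nearest to Ifna1 at 0.08 and to Zfp771 at 0.08. Ifna1 had signals from 236.3, on the 5-month diet array, to 575.3, the lowest being close to the floor of 221.4. With 6 arrays and 9874 genes, near patterns are found for many genes, and these are descriptions of likeness only.

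**Figure D5:**
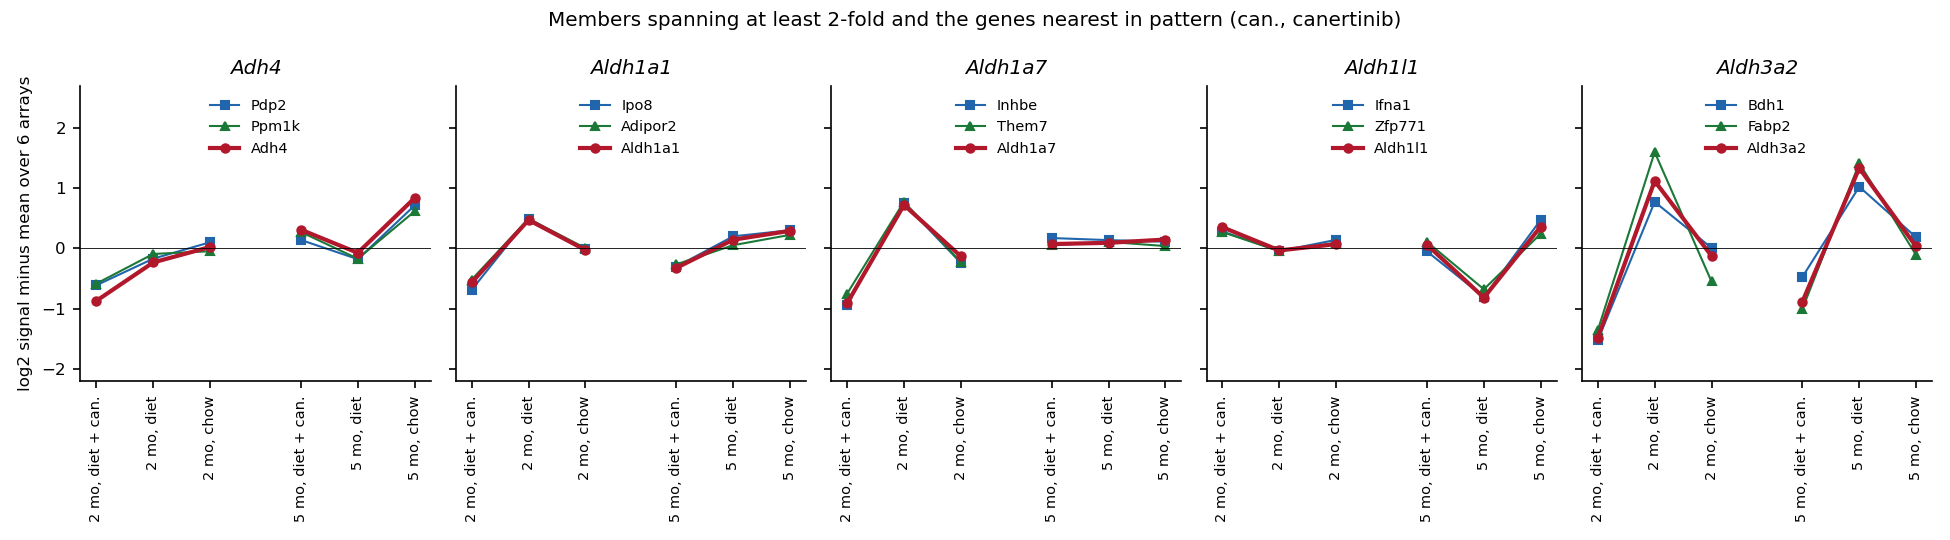
Log2 signal minus the gene's own mean over the 6 arrays for the 5 dehydrogenases that spanned at least 2-fold (red) and the nearest genes in pattern (blue and green), with diet and canertinib, diet, and chow arrays from left to right in each study. The Aldh3a2 panel shows the largest excursions, with both diet arrays above and both canertinib arrays below its mean.

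Markers of other cell types, neutrophils aside, also differed between groups. For 10 macrophage markers the sums were 36905 and 39363 with canertinib, 28934 and 34689 with diet, and 11969 and 12811 with chow, and for 10 stellate cell markers they were 19954 and 15582, 18060 and 24830, and 12700 and 10678 in that order. Dcn, a matrix proteoglycan gene, made up 12831 and 8894 of the stellate sums with canertinib, 10336 and 15851 with diet, and 5899 and 4457 with chow. With canertinib and diet against diet, the median log2 difference of the 9 measured stellate markers was -0.13 at 2 months, where 5 were lower and 3 higher, and -0.48 at 5 months, where 8 were lower and 1 higher. Sums for 8 endothelial markers ranged from 8730 to 12756, for 3 adipocyte markers from 720.0 to 982.2, for 7 T and NK cell markers from 2608 to 3721, and for 5 cholangiocyte markers from 1137 to 1929. Krt7 of cholangiocytes, Camp of neutrophils, Vipr1 of stellate cells, Cd3d and Cd4 of T cells and Adipoq and Lep of adipocytes were at or under the floor on all arrays. The part of these cells in the dehydrogenase differences was not tested.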

How the data were processed

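Liver RNA was measured on 6 Affymetrix Mouse Genome 430 2.0 arrays, 1 per group, with RNA pooled from 3 to 4 livers per the labels. The deposited intensity values are linear MAS5 signals per the submitters' processing notes, and judging by the values the authors had scaled all arrays to 1 common trimmed mean. No source used here gives the MAS5 version. Arrays have no read depth, so the number of arrays limits the precision.

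Of 45101 probe sets, 34958 had 1 gene symbol in the platform annotation, 932 several and 9211 none. The brightest probe set with 1 symbol represented each gene. Signals were raised to a floor at the 50th percentile and log2 transformed, and differences are first group minus second. No test was made. Genes past 2-fold were counted beside the share of all measured genes past it.

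The members and gene lists were chosen with earlier results of these data known. Besides the members and other family genes, the 3 genes of each list with the largest mean difference for diet and the 3 for drug could be named, and for each member spanning 2-fold the 2 nearest genes in pattern. Named outside that rule, after their values were seen, were Dhrs3, Rarb, Cbr1, Hsd17b13, Cyp2b10, Cyp3a11, Cyp3a13 and the stellate marker Dcn. Some listed genes were not analysed here, and no protein sequences were used. Alternatives were quantile normalization, median centring, a lower floor (40th percentile), a higher one (60th) and no floor, averaging a gene's probe sets, omitting probe sets whose suffix marks shared sequence (_s_at, _x_at, _a_at), 1.5-fold and 3-fold thresholds, and requiring signal above the floor on every array. Differences relative to the hepatocyte markers were added after seeing the data. Calculations were tested on simulated data and used Python 3.11.15, NumPy 2.4.6, pandas 2.3.3, Biopython 1.88 and matplotlib 3.10.9.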

Additional observations from a re-analysis of the deposited data

Results flagged for a closer look

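Some members had opposite signs in the 2-month and 5-month studies, and none of these differences between the studies was tested. With diet against chow, the 5-month minus 2-month difference of the log2 differences was -0.30 for Adh1, -0.65 for Aldh1a1, -0.91 for Aldh1a7, -0.98 for Aldh1b1 and -0.65 for Aldh9a1. With canertinib and diet against diet it was 1.02 for Adh4, 0.74 for Aldh1b1 and 0.61 for Aldh9a1. The chow arrays of the studies differed by 0.81 for Adh4, 0.73 for Aldh1b1, 0.43 for Aldh9a1, 0.32 for Aldh1a1, 0.28 for Aldh1a7 and 0.08 for Adh1.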

How the results depend on the processing

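No analysis paired by study was made, since each study has 1 array per group and drug route and length differ between the studies. The labels give no replicate numbers, and the values come from no test. Over all alternatives, 289 of 316 recomputed log2 differences of the members kept their sign, 311 of 316 their side of 2-fold, and 1 moved by more than 1.5-fold. The log2 difference of Aldh3a2 ranged from -3.06 to -2.58 and from -2.72 to -2.14 with canertinib and diet against diet at 2 and 5 months, and from 1.09 to 1.35 and from 1.27 to 1.65 with diet against chow. For members at least 2-fold higher with diet at 2 months, the count was 1 as reported, 2 after median centring, when Aldh1b1 joined, 3 at 1.5-fold (7.51% of all genes) and 0 at 3-fold (0.458%). At 5 months the count of higher members was 0 at 3-fold (0.765%). The count of lower members at 5 months, 1 as reported, was 0 with the mean over probe sets, with probe sets of the _s_at, _x_at and _a_at endings left out, relative to the hepatocyte markers, and at 3-fold (0.386%), and 2 at 1.5-fold (7.57%). That member was Aldh1l1, whose difference without those endings came from its dimmer probe set, at -0.31. The 3 members at least 2-fold lower with canertinib and diet against diet at 2 months became 4 at 1.5-fold (10.6%) and relative to the hepatocyte markers, when Adh4 joined, and 2 at 3-fold (0.829%), without Aldh1a1. At 5 months in that comparison, 1 member was higher at 1.5-fold (8.22%). Expressed relative to the hepatocyte markers, all genes shifted by -0.16 and 0.35 in the diet comparisons and by -0.46 and -0.50 in the canertinib comparisons at 2 and 5 months, and 26 of 40 member differences kept their sign. List medians moved by less than 1.5-fold in 324 of 324 recalculations, while list counts stayed within 1.5 times in 649 of 792, the other fold thresholds included. Aldh9a1 has only probe sets of the omitted endings and gave no value there.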

Other observations

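Genes of hepatocyte zones were listed as well. The 12 measured pericentral genes include Aldh1a1. Their median log2 difference with canertinib and diet against diet was -0.18 at 2 months and 0.43 at 5 months. At each time 1 of the 12 was at least 2-fold higher, the amino acid transporter gene Slc1a4 at 1.26 and 1.67 (3.55% and 2.19% of all genes). Aldh1a1 was the 1 lower at 2 months, and none was lower at 5 months (3.26% and 2.73% of all genes). With diet against chow, the glutamine synthetase gene Glul had 0.57 and 1.06 and Cyp1a2 had -0.96 and -2.06. At 5 months Glul was the 1 of 12 at least 2-fold higher and Cyp1a2 the 1 lower (2.72% and 1.83% of all genes). None passed at 2 months (1.98% higher and 1.55% lower among all genes). Among 10 measured periportal genes the medians were 0.18 and 0.35 for canertinib and -0.06 and -0.49 for diet. With canertinib and diet against diet, the urea cycle gene Asl was the 1 at least 2-fold higher, at 2 months (1.17, 3.55% of all genes). Hsd17b13 was the 1 lower, at 5 months (-1.11, 2.73% of all genes). With diet against chow, Cdh1 was the 1 periportal gene lower at 2 months (-1.45) and Hal the 1 at 5 months (-2.08). Among all genes 1.55% and 1.83% were lower. None of the 10 was higher (1.98% and 2.72% of all genes). The urea cycle gene Arg1 had 0.95 and 0.67 with canertinib and diet against diet, and the P450 gene Cyp2f2 had -0.76 and -0.67.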
